A study of Macaca fascicularis with 16 samples.

Results

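The genes described here encode fibulin-1, small leucine-rich proteoglycans, microfibril proteins and their binding partners in the extracellular matrix of the breast: FBLN1, OGN, DPT, DCN, LUM, BGN, FBN1, MFAP5, TNXB and CHAD. They are 10 of the 14133 genes that the platform annotation names on the array, and were taken as every probe set whose annotation gives 1 of these symbols and no other. The 10 genes had 30 probe sets, of which 29 passed a filter on low signal, and where a gene had several, the strongest tested probe set on average stood for it. Mammary tissue came from 16 ovariectomized, postmenopausal female cynomolgus macaques (Macaca fascicularis), each measured on 1 Affymetrix array designed for the rhesus macaque. The 4 animals of the control group received no treatment. Another 4 received conjugated equine estrogens (CEE) at 0.042 mg/kg, and 4 received the same CEE dose with 0.167 mg/kg of medroxyprogesterone acetate (MPA), a synthetic progestin (CEE+MPA). The last 4 received 0.2 mg/kg of tibolone, a synthetic steroid whose metabolites act on several steroid hormone receptors. All animals, the controls included, lacked ovaries, so each treatment was compared with a state of low ovarian hormone. The study asked how these postmenopausal hormone regimens differ in the breast.

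Fibulins are calcium-binding glycoproteins that join basement membranes, elastic fibres and other matrix networks. Small leucine-rich proteoglycans such as decorin, lumican, biglycan and osteoglycin carry a short protein core of leucine-rich repeats, bind collagen and set the diameter and spacing of its fibrils. Microfibrils are polymers of fibrillin, decorated by proteins such as MFAP5, that scaffold elastin and hold latent TGF-beta in the matrix. In the breast these proteins are made mainly by the fibroblasts of the stroma, which surrounds ducts and lobules and changes with hormone exposure.

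Each array reported a linear signal (intensity) for every probe set, scaled so that the trimmed mean of the array was 250.01 to 250.02. A level from a probe set depends on its probes, so levels were compared between animals and never between genes. Errors of signals are standard deviations over the 4 animals of a group. Differences are of log2(signal + 16), with standard errors from 1 limma model over the 16 arrays, and p-values were adjusted over 28704 tested probe sets with a threshold of 0.05. The labels name separate animals but do not say how the tissue was sampled, and in such bulk tissue fewer cells of a type and less RNA per cell cannot be told apart. Of 15 listed luminal epithelium markers, 13 were on the array and 12 were tested, with a mean KRT19 signal of 14237 to 22000 over the groups, so mammary epithelium was represented. Skeletal muscle markers stood far above the rest on 4 arrays, with list means over the 11 tested markers, centred on the 16 arrays in log2 units, of 2.74 on control 1, 1.33 on CEE+MPA 1, 2.41 on tibolone 2 and 1.63 on tibolone 3. No CEE array exceeded -0.91, and a fit without those 4 arrays is given below beside the calls that it ended.

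FBLN1 differed most among the 10 genes between CEE+MPA and control. Its signal was 2496, 2935, 3758 and 1733 in the controls. In the CEE group it was 1281, 851, 1127 and 814. In the CEE+MPA group it was 623, 331, 446 and 431. Every CEE+MPA animal lay below every CEE animal, and every CEE animal lay below every control. With tibolone the signal was 2173, 2266, 2454 and 1474, which overlapped the controls and stayed above all animals of both CEE groups.

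**Figure D1:**
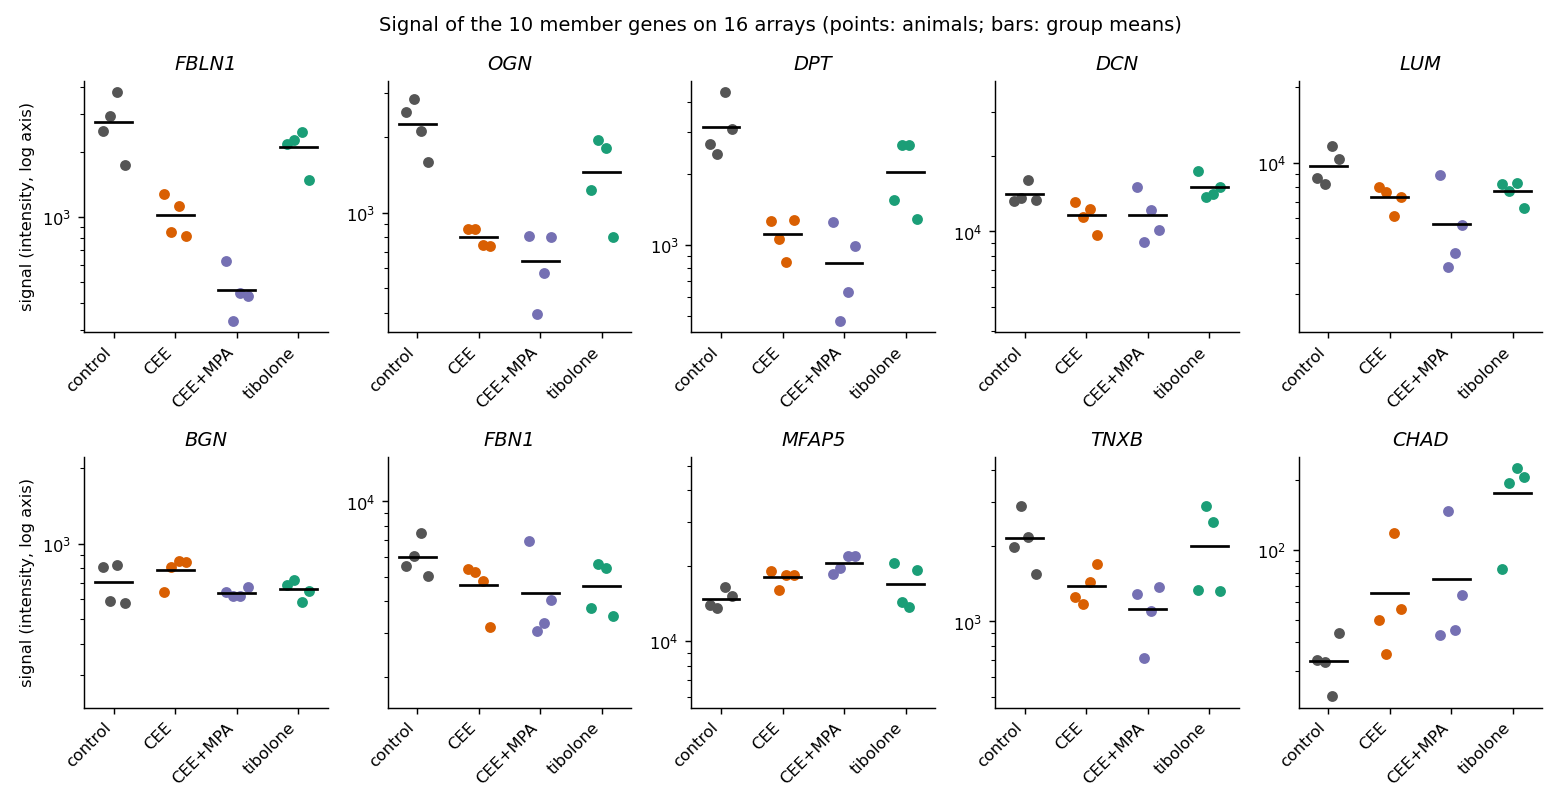
Signal of each gene's representative probe set (intensity, log axis) on each of the 16 arrays by treatment group, with 1 point an animal and a bar at the group mean. FBLN1, OGN and DPT are lowest in the CEE and CEE+MPA groups, CHAD is highest with tibolone, and BGN shows little spread between groups.

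FBLN1 fell with CEE+MPA from a mean signal of 2731 ± 846 to 458 ± 122 (SD, n = 4 each), a log2 difference of -2.52 ± 0.25 (SE; 95% interval -3.04 to -1.99; limma adjusted p = 0.000342). This is a 5.72-fold lower value of signal + 16. Among all 10452 genes tested, 4.96% were called lower in this comparison, and 4 of the 10 genes described here were (FBLN1, OGN, DPT and LUM). With CEE alone the mean was 1018 ± 224 and the log2 difference from control -1.38 ± 0.25, with an adjusted p of 0.0504 that missed the threshold. It passed without control 4, CEE+MPA 1 or 2, or tibolone 3 or 4, with adjusted p of 0.0214 to 0.181 over the 16 fits that left out 1 array. CEE+MPA against CEE gave -1.14 ± 0.25 (adjusted p = 0.207), with no overlap between the groups. Tibolone gave 2092 ± 428, -0.35 ± 0.25 from control (95% interval -0.88 to 0.17; adjusted p = 0.913).

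All 3 FBLN1 probe sets fell with CEE+MPA. Their log2 differences were -2.52, -2.72 and -2.35 in order of their mean level, all called lower, and none overlapped the controls. With tibolone they differed, since on the third probe set tibolone 4 (512) lay within the CEE range of 483 to 705. The CEE+MPA call passed in all 16 fits that left out 1 array, with differences of -2.71 to -2.34 and adjusted p of 0.000161 to 0.00305. It was lost with the mean of general fibroblast markers as a covariate (-2.02 ± 0.33, adjusted p = 0.171), a model in which 0 of 28704 probe sets passed, against a range of 0.000121 to 0.171 over 23 alternatives.

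Osteoglycin (OGN, also called mimecan) is a small leucine-rich proteoglycan of collagen-rich connective tissue. Its signal in the controls was 2512, 2832, 2122 and 1597. With CEE it was 865, 860, 744 and 739, a narrow band below every control. With CEE+MPA it was 809, 396, 573 and 799, which overlapped CEE and lay below every control. With tibolone it was 1229, 1950, 1817 and 798, spread from the control range down to the CEE range.

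OGN fell by 1.81 ± 0.28 on the log2 scale with CEE+MPA (3.51-fold lower signal + 16; limma adjusted p = 0.00404). With CEE alone the difference from control was -1.45 ± 0.28 (adjusted p = 0.0581), and CEE+MPA differed from CEE by -0.36 ± 0.28 (95% interval -0.95 to 0.22; adjusted p = 0.794). The weaker of its 2 probe sets fell too, by 1.34 ± 0.30 (adjusted p = 0.0201). Tibolone against control gave -0.69 ± 0.28 (95% interval -1.28 to -0.11; adjusted p = 0.9).

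Dermatopontin (DPT) is a small non-collagenous matrix protein that binds decorin and promotes collagen fibril assembly. Control signals were 2654, 2427, 4398 and 3084. With CEE they were 1260.5, 1056, 846 and 1268, all below the controls. With CEE+MPA they were 1253, 479, 632 and 984, again all below the controls. With tibolone they were 1553, 2641, 2650.4 and 1283, with animals 2 and 3 inside the control range and animals 1 and 4 under it.

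DPT fell by 1.94 ± 0.30 with CEE+MPA (3.85-fold lower signal + 16; limma adjusted p = 0.0042), and all 3 of its probe sets fell, with log2 differences of -1.94, -1.79 and -1.70. With CEE alone the difference was -1.47 ± 0.30 (adjusted p = 0.0741). Tibolone gave -0.66 ± 0.30 (95% interval -1.30 to -0.02; adjusted p = 0.913). The OGN and DPT calls between CEE+MPA and control passed in all 16 fits that left out 1 array, with the highest adjusted p at 0.0199 for OGN and 0.0177 for DPT. With the fibroblast covariate the differences were -1.17 ± 0.36 for OGN and -1.37 ± 0.41 for DPT (adjusted p = 0.387 for both, the highest value over 23 alternatives, the lowest being 0.000794 for OGN and 0.000701 for DPT). That covariate model called 0 of 28704 probe sets.

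Lumican (LUM) and decorin (DCN) are the most studied small leucine-rich proteoglycans of breast stroma. Both bind fibrillar collagen, and decorin also binds TGF-beta and growth factor receptors. LUM signals in the controls were 8732, 8248, 11626 and 10379. With CEE+MPA they were 8962, 3853, 4352 and 5649. Animal 1 of that group lay within the control range and the other 3 lay below it.

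LUM fell with CEE+MPA, with a log2 difference of -0.84 ± 0.21 (mean signal 9746 ± 1550 against 5704 ± 2300, 1.79-fold lower signal + 16; limma adjusted p = 0.0335). Its other probe sets also fell, at -0.73 ± 0.15 (adjusted p = 0.0136) and -1.73 ± 0.37 (adjusted p = 0.0159), and neither overlapped the controls. The representative probe set lost the call when control 1, 2, 3 or 4, or CEE+MPA 2 or 3, was left out, with adjusted p of 0.00481 to 0.0993 over the 16 such fits, and with the fibroblast covariate (-0.50 ± 0.30, adjusted p = 0.64, the highest over 23 alternatives, the lowest being 0.00866). That covariate model called 0 of 28704 probe sets. With CEE the signals were 8038, 7657, 6127 and 7315, and the difference from control was -0.41 ± 0.21 (adjusted p = 0.45). With tibolone they were 8238, 7747, 8319 and 6602, and the difference was -0.33 ± 0.21 (95% interval -0.78 to 0.13; adjusted p = 0.913).

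The 5 tested DCN probe sets gave different answers. On the representative one the signal was 13222, 13548, 16061 and 13378 in the controls and 14999.8, 9043, 12191 and 10097 with CEE+MPA. The CEE+MPA animals spanned from below to within the control range, and the difference of -0.30 ± 0.16 missed the threshold (limma adjusted p = 0.268). The third DCN probe set by level fell from 11285 ± 1135 to 6938 ± 695 with no overlap, a difference of -0.70 ± 0.11 (adjusted p = 0.00442). The other 3 gave -0.55 ± 0.17, -0.93 ± 0.30 and -0.0033 ± 0.11 (adjusted p = 0.0593, 0.0762 and 0.991). With tibolone the representative signal was 17486, 13762, 14042 and 15037, a difference of 0.10 ± 0.16 from control (95% interval -0.24 to 0.44).

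**Figure D2:**
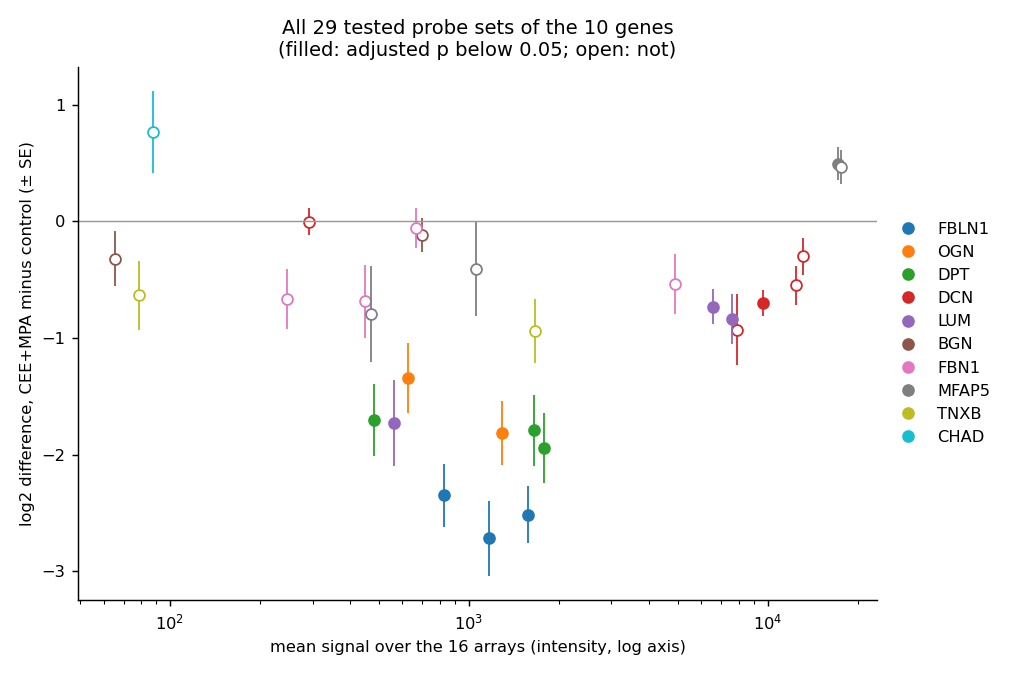
Log2 difference between CEE+MPA and control (with SE) against mean signal over the 16 arrays (log axis) for the 29 tested probe sets of the 10 genes. Filled points passed the limma threshold: 12 lower and 1 higher (beside 4.38% and 1.95% of all probe sets tested), with all probe sets of FBLN1, OGN, DPT and LUM among the 12, and with DCN and MFAP5 split.

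Biglycan (BGN) is the closest relative of decorin. On the representative probe sets, BGN had group means closer together on the log2 scale than any other of the 10 genes. Its signal was 812, 594, 826 and 579 in the controls and 641, 620.3, 620.3 and 669.8 with CEE+MPA. The CEE+MPA animals clustered inside the control range, with a difference of -0.12 ± 0.14 (95% interval -0.42 to 0.19; adjusted p = 0.668). With CEE the mean was 787 ± 99.6 and the difference 0.17 ± 0.14 (95% interval -0.13 to 0.48). With tibolone the mean was 661 ± 55.7 and the difference -0.07 ± 0.14 (95% interval -0.38 to 0.23).

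Chondroadherin (CHAD) is a leucine-rich repeat protein of cartilage matrix that binds collagen and integrins. Its signal in the controls was 33.4, 32.8, 23.4 and 43.7, all under the filter signal of 60.2, so the control level was near the low end of the array. With tibolone it was 82.7, 194, 226 and 206, and every tibolone animal lay above every control. With CEE it was 50.0, 35.6, 119 and 55.7, and with CEE+MPA 43.2, 147, 45.2 and 64.2, both with 1 animal well above the other 3.

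The tibolone difference of CHAD from control was 1.90 ± 0.35 on the log2 scale (95% interval 1.15 to 2.66), but its limma adjusted p was 0.115. The other 9 genes also missed the threshold in this comparison, where 0.00957% of all genes tested were called higher and 0% lower. At an unadjusted p below 0.05 there were 3 of the 10 (OGN, DPT and CHAD), beside 4.83% of all genes. CHAD was above the filter signal on 0 control, 1 CEE, 2 CEE+MPA and 4 tibolone arrays, so it was tested only because it was high with tibolone, and its lack of overlap with the controls (found for 1.81% of all genes in the higher direction) is a description. Markers of cartilage and tendon gave no limma call among 6 tested genes with tibolone (lowest adjusted p = 0.913), with a list mean of -0.48 to 0.25 beside -0.31 to -0.15 in the controls, while the cartilage and tendon markers MATN1, ACAN, TNMD and CNMD were all too weak to be tested. CHAD had 1 probe set, and the offset of 16 understates differences at such low signals. Without tibolone 1 the adjusted p was 0.0454 (difference 2.20 ± 0.34), within a range of 0.0454 to 0.375 over the 16 fits that left out 1 array.

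FBN1 encodes fibrillin-1, the main subunit of microfibrils. Its signal was 5526, 6044, 7489 and 5027 in the controls and 6940.1, 3036, 3286 and 4039 with CEE+MPA. Animal 1 of the CEE+MPA group, the animal of that group that was also highest for LUM, lay within the control range and the other 3 below it. The difference was -0.54 ± 0.26 (95% interval -1.08 to 0.0034; adjusted p = 0.211), and the other 3 probe sets gave -0.05, -0.69 and -0.66 on the log2 scale with no call. With CEE the difference from control was -0.38 ± 0.26 (adjusted p = 0.565), and with tibolone -0.41 ± 0.26 (95% interval -0.95 to 0.14; adjusted p = 0.913).

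MFAP5, a glycoprotein that binds fibrillin, had probe sets that differed in direction between CEE+MPA and control. The 2 strongest probe sets had mean signals of 17542 and 17163 over the 16 arrays. On the first the signal was 13995, 13569, 16445 and 15218 in the controls and 18550.3, 19617, 21801 and 21779 with CEE+MPA, with no overlap. Its difference was 0.47 ± 0.14 (limma adjusted p = 0.0626), and that of the second, which rose, was 0.50 ± 0.14 (adjusted p = 0.0487). The weaker 2 probe sets gave -0.41 ± 0.41 and -0.80 ± 0.41 (adjusted p = 0.592 and 0.253).

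The profiles of these probe sets over the 16 arrays were compared by the root mean square (RMS) difference of centred log2 values, where 0 means the same profile. The 2 strong MFAP5 probe sets differed from each other by 0.065, and from the weaker 2 by 0.72 to 0.83. Among the 20 genes nearest to the strongest probe set, 12 were ribosomal protein genes, and 9 of 20 were for the second, although 37 of the tested genes were ribosomal protein genes. RPL15, RPLP2, RPS3 and RPS26 lay within 0.038 of the strongest probe set. None of the 20 nearest genes of either weaker probe set was ribosomal. Whether the strong probe sets measure MFAP5 transcript was not tested, and the mean of all 4 gave -0.06 ± 0.18 with CEE+MPA (adjusted p = 0.876), the opposite sign to the representative.

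**Figure D3:**
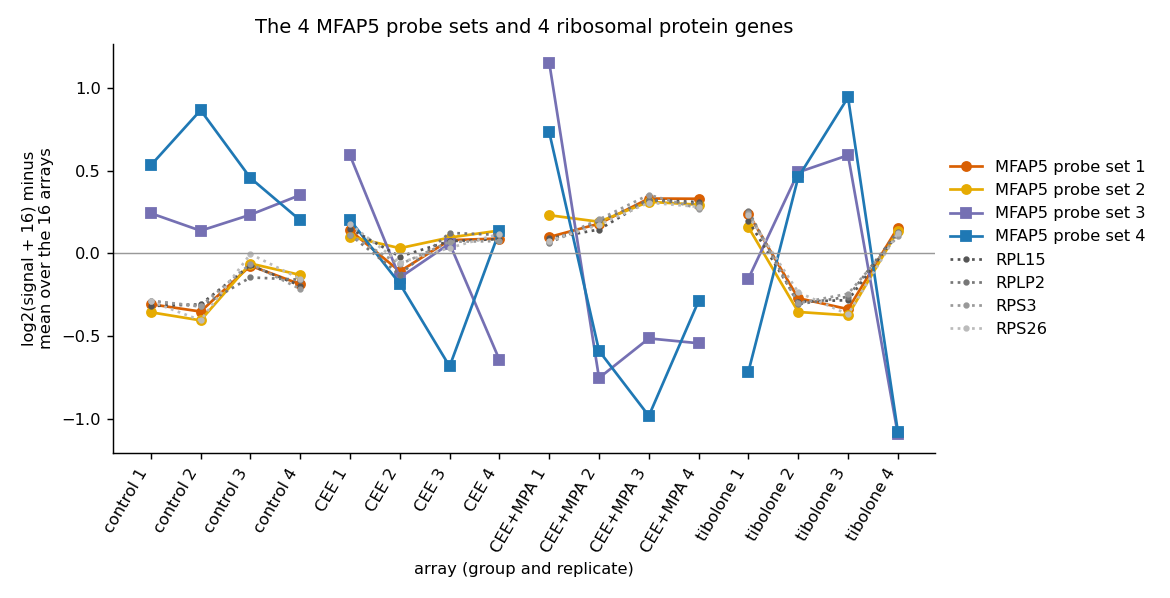
Log2(signal + 16), centred on its mean over the 16 arrays, for the 4 MFAP5 probe sets and 4 ribosomal protein genes, by array. The 2 strong MFAP5 probe sets (1 and 2) run close to RPL15, RPLP2, RPS3 and RPS26, and the weaker 2 (3 and 4) move separately from them.

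TNXB encodes tenascin-X, a large glycoprotein that ties collagen fibrils together. Its signal was 1981, 2883, 2179 and 1541 in the controls. With CEE+MPA it was 1283, 713, 1102 and 1368, all below the controls. With CEE it was 1248, 1179, 1435 and 1697, which overlapped the lowest control. With tibolone it was 1334, 2885, 2489.9 and 1323, with animals 2 and 3 as high as the controls.

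The CEE+MPA difference of TNXB was -0.94 ± 0.28 (limma adjusted p = 0.054), just outside the threshold, and the second tested probe set gave -0.64 ± 0.30 (adjusted p = 0.206). Over the 16 fits that left out 1 array the adjusted p was 0.0392 to 0.172, and it passed without control 4 or any tibolone animal. With CEE the difference was -0.60 ± 0.28 (adjusted p = 0.39), and with tibolone -0.15 ± 0.28 (95% interval -0.73 to 0.44; adjusted p = 0.962).

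Just inside the threshold with CEE+MPA, then, lay LUM at 0.0335, and just outside it TNXB at 0.054 and MFAP5 at 0.0626. Over the 10 genes the median log2 difference was -0.69 with CEE+MPA, beside 0.01 over all genes, 4 of the 10 lay below every control (FBLN1, OGN, DPT and TNXB), beside 10.5% of all genes, and MFAP5 alone lay above, beside 9.04% of all genes. The MFAP5 values here are those of its representative probe set, which ran close to ribosomal protein genes. The weaker MFAP5 probe sets gave differences of the opposite sign with no call. With CEE the median was -0.40, beside 0.01 over all genes. None of the 10 passed limma's threshold with CEE, in a comparison where 0.0191% of all genes were called lower, and 4 of them (FBLN1, OGN, DPT and TNXB) had an unadjusted p below 0.05, beside 14.2% of all genes. On the representative probe sets the CEE animals lay below every control for 5 genes (FBLN1, OGN, DPT, DCN and LUM), beside 5.21% of all genes. The gap was narrow for DCN (13156 in CEE 1, 13222 in control 1) and LUM (8038 in CEE 1, 8248 in control 2). Both depended on the probe set. On another LUM probe set CEE 2 (7276) lay above control 2 (6985). On another DCN probe set CEE 1 (9019) lay above control 1 (8851), and the weakest DCN probe set also overlapped. The remaining probe sets of these 5 genes had no overlap. With tibolone the median was -0.24, beside 0.01 over all genes. These 3 comparisons share the 4 control animals, so their values stand side by side and are not independent.

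**Figure D4:**
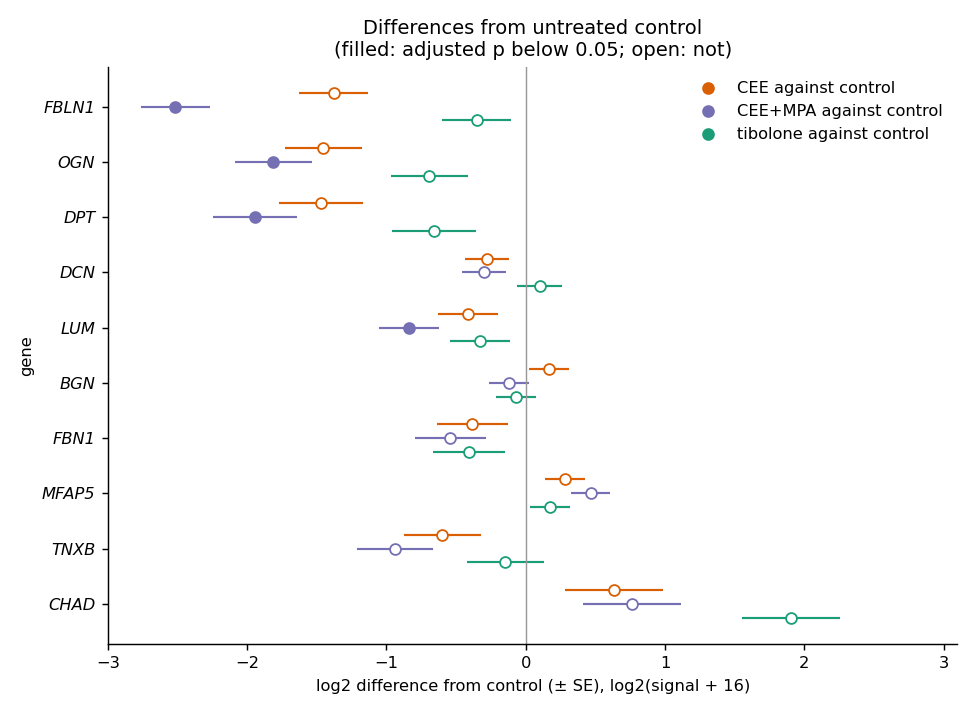
Log2 difference from control (with SE) of the 10 genes in the CEE, CEE+MPA and tibolone groups, with filled points past the limma threshold. Only CEE+MPA differences are filled (FBLN1, OGN, DPT and LUM), the CEE values of FBLN1, OGN and DPT lie between -1.47 and -1.38, and the CHAD value with tibolone lies at 1.90.

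For FBLN1, OGN, DPT, LUM and TNXB the group means ran in the order control, tibolone, CEE, CEE+MPA. Neighbours in that order did not pass the test for any of them, with the smallest adjusted p between neighbours at 0.207 for FBLN1, CEE+MPA against CEE. In the direct test of adding MPA to CEE, none of the 10 genes passed limma's threshold, beside 0.0287% of all genes called lower, and FBLN1 alone had an unadjusted p below 0.05, beside 7.58% of all genes, and no overlap, beside 3.18% of all genes in the lower direction. The 95% intervals leave room for sizeable differences: -1.12 to 0.17 for DPT, -0.88 to 0.03 for LUM and -0.92 to 0.25 for TNXB on the log2 scale. CEE+MPA 2 was the lowest of the 16 arrays for 7 of the 10 genes, and control 3 the highest for 4.

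Tibolone was also set against both CEE regimens. Against CEE+MPA, 3 of the 10 genes rose, beside 3.98% of all genes tested: FBLN1 by 2.16 ± 0.25 (4.48-fold higher signal + 16; limma adjusted p = 0.00143), DPT by 1.29 ± 0.30 (adjusted p = 0.0273) and OGN by 1.12 ± 0.28 (adjusted p = 0.0316). FBLN1 and DPT had no overlap between these groups, beside 7.78% of all genes, while the OGN signal of tibolone 4 (798) lay just below the highest CEE+MPA values. The DPT gap was narrow (1283 in tibolone 4, 1253 in CEE+MPA 1). On the third DPT probe set tibolone 4 (347) lay below CEE+MPA 1 (414). TNXB and CHAD gave 0.79 ± 0.28 and 1.14 ± 0.35 (adjusted p = 0.0921 and 0.0656). Since CHAD was tested only because it was high with tibolone, its value here is a description. Of the 29 probe sets 8 rose, beside 3.78% of all probe sets tested, and not all OGN and DPT probe sets were among them. The weaker OGN probe set had signals of 646 ± 157 with tibolone and 400 ± 219 with CEE+MPA, which overlapped. DCN passed on the third of its probe sets by level (0.76 ± 0.11, adjusted p = 0.00465) and LUM on the second of its own (0.55 ± 0.15, adjusted p = 0.0418), but not on the representatives (0.40 ± 0.16 and 0.51 ± 0.21). Without the 4 arrays of high skeletal muscle signal, FBLN1 differed by 2.12 ± 0.32, DPT by 1.06 ± 0.32 and OGN by 0.79 ± 0.30, and the adjusted p rose to 0.0907, 0.325 and 0.438 in a fit in which 0 of 28704 probe sets passed, those of DCN and LUM included. With the arrays split into 12 of low and 4 of high dap spike-in control signal, as a block, FBLN1 passed (2.05 ± 0.27, adjusted p = 0.00637), and DPT (1.07 ± 0.31) and OGN (1.02 ± 0.31) missed the threshold (adjusted p = 0.051 and 0.0551). OGN and DPT also lost the call without CEE+MPA 2 or 3 or tibolone 2 or 3, with adjusted p up to 0.102 for OGN and 0.091 for DPT over the 16 such fits.

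Against CEE, tibolone gave no call among the 10 genes by limma, and 0% of all genes were called in either direction. An unadjusted p below 0.05 was found for 5 of them, all higher with tibolone, beside 6.53% of all genes higher at that p. CHAD was 1 of the 5, and was tested only because it was high with tibolone, so its place in this count is a description. FBLN1 (1.03 ± 0.25, adjusted p = 0.218), DPT (0.81 ± 0.30, adjusted p = 0.323) and DCN (0.38 ± 0.16, adjusted p = 0.375) had no overlap, beside 2.86% of all genes. OGN gave 0.76 ± 0.28 and CHAD 1.27 ± 0.35 (adjusted p = 0.316 and 0.256). FBLN1 passed here in 1 of the 16 fits that left out an array, the fit without tibolone 4.

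The other genes of the same matrix families and pathways were counted from 7 lists (small leucine-rich proteoglycans, fibulins, microfibrils and elastic fibres, tenascins and matrix glycoproteins, hyalectans and their proteases, glycosaminoglycan synthesis, and TGF-beta ligands and receptors). Of 123 listed genes that are not among the 10, 95 were on the array and 77 were tested. With CEE+MPA, 17 of the 77 (22.1%) fell and none rose in limma's test, beside 4.96% and 2.74% of all genes, and 34 were lower and 3 higher at an unadjusted p below 0.05, beside 14.7% and 13.6% of all genes. Their median log2 difference was -0.39, beside 0.01 over all genes. With CEE or tibolone against control none of the 77 passed, and at an unadjusted p below 0.05 there were 15 lower and 5 higher with CEE (beside 7.47% and 6.68% of all genes) and 2 lower and 1 higher with tibolone (beside 2.25% and 2.58%). With tibolone against CEE+MPA, 14 of the 77 rose and none fell, beside 3.98% and 3.37% of all genes, and 32 were higher and 2 lower at an unadjusted p below 0.05, beside 15% and 13% of all genes. Without the 4 arrays of high skeletal muscle signal, 12 of the 77 passed for CEE+MPA against control, all lower, beside 980 of 28704 probe sets (3.41%) in either direction. For tibolone against CEE+MPA that fit called 0 of the 77 and 0 of all 28704 probe sets. There 56 of the 77 differences were positive, with a median of 0.29 beside 0.46 over all 16 arrays. With the fibroblast covariate 0 of the 77 passed in either comparison. In that model only 0 of 28704 probe sets passed for CEE+MPA against control and 20 for tibolone against CEE+MPA, so these zeros say little about the 77.

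**Figure D5:**
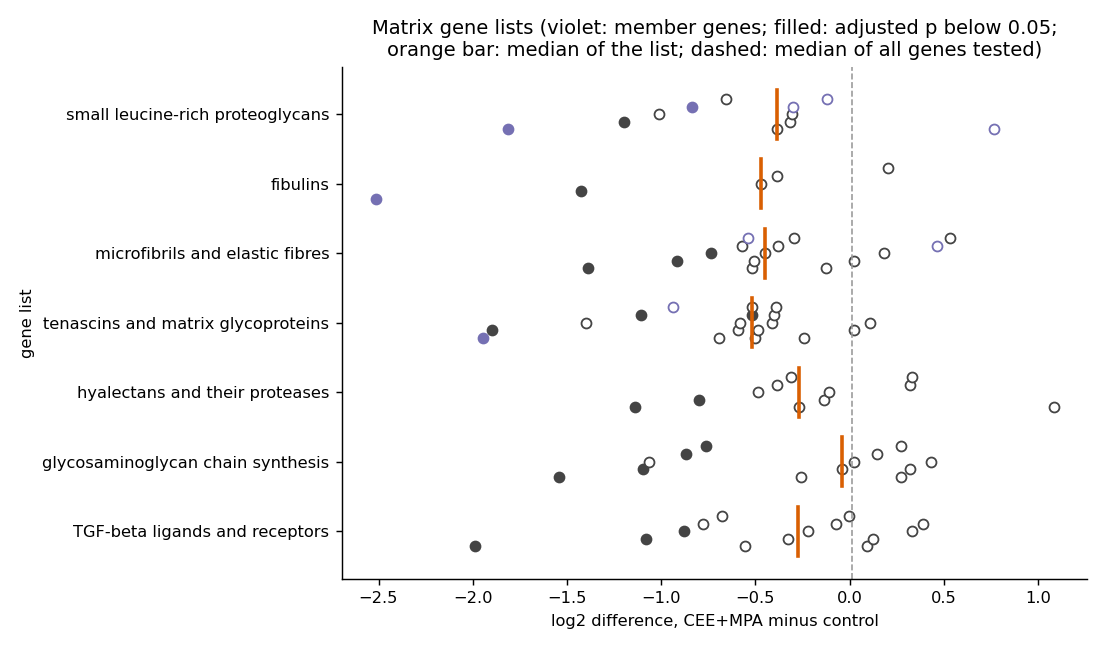
Log2 difference between CEE+MPA and control for each tested gene of the 7 matrix lists, with the 10 genes described here in violet, filled points past the limma threshold, an orange bar at each list's median and a dashed line at the median of all genes (0.01). The filled points all lie below 0, and FBLN1 is the lowest at -2.52.

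Among fibulins, 2 of 5 tested genes fell with CEE+MPA, beside 4.96% of all genes. The other was FBLN5, an elastic fibre assembly protein, at -1.42 ± 0.26 (mean signal 1841 ± 291 against 715 ± 290; adjusted p = 0.00872). Among small leucine-rich proteoglycans 3 of 11 fell: OGN, LUM and osteomodulin (OMD), at -1.20 ± 0.27 (764 ± 169 against 336 ± 114; adjusted p = 0.0209). OMD is the gene next to OGN in the RefSeq annotation of the cynomolgus assembly T2T-MFA8v1.1, in the order OGN, OMD, ASPN, ECM2. The other members of that row, all leucine-rich repeat matrix genes, gave -0.32 ± 0.40 for ASPN (adjusted p = 0.68) and -1.01 ± 0.31 for ECM2 (adjusted p = 0.0604). LUM and DCN are neighbours in a second such row after EPYC and KERA, and EPYC gave -0.38 ± 0.69 (adjusted p = 0.786).

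Of 15 microfibril and elastic fibre genes, 3 fell with CEE+MPA, beside 4.96% of all genes. These were LTBP1, which holds latent TGF-beta on microfibrils, ADAMTSL4, a fibrillin-binding protein (-1.39 ± 0.29; 567 ± 185 against 205 ± 64.9), and EMILIN1, an elastic fibre glycoprotein (-0.74 ± 0.17; 501 ± 106 against 295 ± 60.3). Of 18 tenascins and matrix glycoproteins, 4 fell: DPT, MATN2, SRPX (-1.11 ± 0.20; adjusted p = 0.00824) and THBS2 (-1.90 ± 0.42; adjusted p = 0.0184). Thrombospondin-2, the product of THBS2, takes part in collagen fibril assembly and limits vessel growth.

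Enzymes of glycosaminoglycan synthesis and a protease of proteoglycan core proteins were also among the genes that fell with CEE+MPA. The counts below stand beside 4.96% of all genes called lower in that comparison. Of 13 genes of glycosaminoglycan synthesis, 4 fell, among them UST (uronyl 2-sulfotransferase; -1.54 ± 0.29; adjusted p = 0.0106) and DSEL, related to the dermatan sulfate epimerases (-1.10 ± 0.23; adjusted p = 0.0164). Of 11 hyalectan genes and their proteases, 2 fell: the hyaluronan synthase HAS3 (-0.80 ± 0.21; adjusted p = 0.0356) and the versican- and aggrecan-cleaving protease ADAMTS1 (-1.14 ± 0.32; adjusted p = 0.0438). Of 14 TGF-beta family genes, 3 fell: BMP4, the activin subunit INHBA (-1.99 ± 0.32; 303 ± 101 against 65.3 ± 28.0; adjusted p = 0.00442) and the signal transducer SMAD3 (-0.88 ± 0.18; 769 ± 85.5 against 409 ± 7.14; adjusted p = 0.0124). Without the 4 arrays of high skeletal muscle signal EMILIN1, MATN2 and HAS3 were among the genes that lost the call (adjusted p = 0.074, 0.102 and 0.094).

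With tibolone against CEE+MPA the same lists gave OMD at 1.17 ± 0.27, FBLN5 at 1.15 ± 0.26, EMILIN1 at 0.79 ± 0.17, ADAMTSL4 at 1.23 ± 0.29 and SRPX at 0.85 ± 0.20, all higher with tibolone (limma adjusted p of 0.0223 to 0.0273). MATN2, which encodes matrilin-2, rose by 0.57 ± 0.14, and the hyaluronan receptor CD44 by 0.68 ± 0.19. UST rose by 1.32 ± 0.29, the dermatan sulfotransferase CHST14 by 0.76 ± 0.20, and ADAMTS1 by 1.18 ± 0.32. INHBA rose by 1.60 ± 0.32 and SMAD3 by 0.76 ± 0.18. None of these 12 genes passed without the 4 arrays of high skeletal muscle signal, where INHBA gave 1.53 ± 0.38, FBLN5 0.93 ± 0.30 and OMD 1.01 ± 0.34 (adjusted p = 0.251, 0.363 and 0.388). These values share the CEE+MPA animals with the comparison against control, and are not independent of it.

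The genes whose profiles over the 16 arrays were nearest to those of the 4 most variable genes were found among 10451 others, again by RMS difference of centred log2 values. For FBLN1, whose own RMS deviation was 1.03, they were PALMD (0.38), ANP32E (0.42) and the smooth muscle myosin MYH11 (0.43). With CEE+MPA both MYH11 (-1.92 ± 0.28; limma adjusted p = 0.00365) and PALMD (-1.78 ± 0.23; adjusted p = 0.00198) fell. For OGN (own RMS 0.79) they were FBLN5 (0.28), UST (0.28) and the stromal chemokine CXCL12 (0.29). For DPT (own RMS 0.85) they were CXCL12 (0.25), PALMD (0.29) and FBLN5 (0.31), with OGN next at 0.32. CXCL12 also fell with CEE+MPA (-1.88 ± 0.26; limma adjusted p = 0.00304). All these neighbours were picked for likeness over the same 16 arrays, so their falls largely follow from that choice and are descriptions. They are also the neighbours of the representative probe sets. The genes nearest to the weaker OGN probe set were KLF7 (0.23), CCDC80 (0.25) and PRRX1 (0.26). The other FBLN1 probe sets were nearest to MYH11 or PALMD, without ANP32E among the nearest 5.

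The genes nearest to CHAD were CSPG5, SMOX and TMEM266, at 0.59 to 0.61, beside its own RMS deviation of 0.84. None of the 3 passed limma's threshold with tibolone against control, and CSPG5 gave 0.96 ± 0.28 (424 ± 123 against 208 ± 52.9; adjusted p = 0.74).

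Markers of stromal cell types moved in the same comparison, and their part in the results above was not tested beyond the covariate fits. Of 10 tested general fibroblast markers, 3 fell with CEE+MPA (COL6A1, S100A4 and LSP1), beside 4.96% of all genes, with a median of -0.47. The list mean per array ran from 0.01 to 0.38 in the controls, -0.27 to 0.17 with CEE, -0.39 to 0.01 with CEE+MPA and -0.20 to 0.23 with tibolone. VIM and COL1A1, both of that list, did not pass in any of the 6 comparisons. The filter on low signal leaves out markers near 0. TCF21, also of that list, was not tested, with a mean signal of 0.83 to 2.16 over the groups.

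Smooth muscle and pericyte markers fell for 6 of 8 tested genes with CEE+MPA (median -1.16), and their list mean was 0.06 to 0.49 in the controls and -0.90 to -0.30 with CEE+MPA. Basal and myoepithelial markers fell for 3 of 5, adipocyte markers for 2 of 11, endothelial markers for 2 of 10 and macrophage markers for 1 of 11. All these counts stand beside 4.96% of all genes called lower with CEE+MPA, and the macrophage count is near that share. The basal and myoepithelial genes that fell were ACTG2, CNN1 and TRIM29, and CNN1 is counted in the smooth muscle list too. TP63 of the basal list was not called, with a mean signal of 628 in the controls and 671 with CEE+MPA. Of the 13 genes of that list 5 were on the array. Of 5 nerve and Schwann cell markers PMP22 and MBP fell, and the 2 tested skin keratinocyte markers gave no call. Of the luminal markers KRT19 and SPDEF rose and none of the 12 fell, beside 2.74% of all genes higher and 4.96% lower. Skeletal muscle markers gave no call among 11. The progesterone receptor gene PGR is an estrogen-induced gene in breast epithelium. Its mean signal was 17.7 ± 3.67 in the controls, 88.7 ± 49.5 with CEE, 17.6 ± 8.86 with CEE+MPA and 75.1 ± 73.4 with tibolone. No PGR difference passed the threshold (smallest limma adjusted p = 0.175). The control and CEE+MPA levels lay under the filter signal of 60.2. PGR was therefore tested only because it was high on CEE and tibolone arrays, and its values are a description.

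The arrays also differed in the signal of the dap spike-in control, which separates 12 low from 4 high arrays at its largest gap. The high arrays were control 2, CEE 4, CEE+MPA 2 and CEE+MPA 3, which hold 2 CEE+MPA animals and no tibolone animal. With this split as a block, the differences between CEE+MPA and control were -2.46 ± 0.25 for FBLN1 (limma adjusted p = 0.00123), -1.76 ± 0.29 for OGN, -1.83 ± 0.29 for DPT and -0.74 ± 0.19 for LUM (adjusted p = 0.0383), all past the threshold. Within the low arrays, with 3 controls and 2 CEE+MPA animals, the differences were -2.25 ± 0.32 for FBLN1, -1.33 ± 0.33 for OGN, -1.56 ± 0.33 for DPT and -0.52 ± 0.22 for LUM, none past the threshold (adjusted p = 0.0699 for FBLN1). Within the high arrays, with 1 control and 2 CEE+MPA animals, they were -2.88 ± 0.43, -2.53 ± 0.44, -2.11 ± 0.44 and -1.01 ± 0.29, with adjusted p of 0.0383 for FBLN1 and 0.0386 for OGN. The lone control there has no spread of its own, and these errors assume that it varied like the arrays of the other groups and sets. Tibolone against CEE+MPA had both groups in the low set only, where FBLN1 gave 1.95 ± 0.31 (adjusted p = 0.0234) and DPT and OGN 0.79 ± 0.31 and 0.75 ± 0.31 (adjusted p = 0.179 and 0.195). The second largest gap in the spike-in signal splits the low arrays again, and with all 3 sets as a block none of the 10 genes passed for tibolone against CEE+MPA (FBLN1 2.06 ± 0.39, DPT 1.57 ± 0.41 and OGN 1.04 ± 0.44, adjusted p = 0.172, 0.223 and 0.374). In that fit 0 of 28704 probe sets passed, and no set holds both groups, since all 4 tibolone arrays lie in the middle set and the CEE+MPA arrays in the outer sets.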

How the data were processed

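Total RNA was extracted with Tri-reagent and RNeasy Mini columns and biotin labelled, per the labels' protocols. The deposited values were a linear intensity for each probe set, already scaled by the authors, and the submitters' processing notes name GCOS and Affymetrix Expression Console. The summary algorithm is not given in the sources used here. From 52865 probe sets, 99 controls were left out, 361 carried several symbols and 27535 no symbol. Tests covered the 28704 probe sets (10452 genes) with a signal above 60.2, which is the whole table's median, on 4 or more arrays. Log2(signal + 16) was fitted with limma 3.58.1 in R 4.3.3 as 4 group means over 16 arrays, with Benjamini-Hochberg adjustment over all tested probe sets in each of 6 comparisons. The offset understates differences at low signal. The number of arrays limits precision. Rhesus probes can bind cynomolgus transcripts unequally. Figures used matplotlib 3.10.9, and the fits were tested on simulated data.

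The 10 genes and all gene lists were chosen with earlier results of these data known, so counts over them are descriptions. Genes outside the 10 were named as up to 2 genes of each matrix list and direction with the smallest adjusted p past the threshold in each comparison, the 3 nearest profiles of FBLN1, OGN, DPT and CHAD, and a fixed panel, of which PGR, COL1A1 and VIM are reported here. MATN2, LTBP1 and BMP4 in the comparison with control, the markers that passed and the neighbours of OGN and LUM were named after their values were seen. Alternatives were other normalizations, offsets, filters, priors and weights, fits of only the groups compared, other probe sets, spike-in sets, RNA quality and tissue marker covariates, and each array left out. The spike-in split at the second largest gap and the 3-set block were added after seeing the data, as were the matrix list counts without the arrays of high skeletal muscle signal and with the fibroblast covariate. Replicate numbers follow the order of deposit.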

Additional observations from a re-analysis of the deposited data

Results flagged for a closer look

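Within the 40 groups of 4 animals formed by the 10 genes and 4 treatments, 2 held an animal set apart from the other 3 by Dixon's test of the gap to the nearest animal over the range, which chance meets in about 5% of groups. For DCN, control 3 had the highest signal of its group at 16061, with the next control at 13548. For CHAD, tibolone 1 had the lowest signal of its group at 82.7, with the next tibolone animal at 194.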

How the results depend on the processing

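No paired analysis was possible because the labels tie no animal of 1 group to an animal of another, and replicate numbers only follow the order of deposit. Counts that moved by more than 1.5 times come first. The number of the 10 genes past the threshold, 0 with CEE against control, was 2 with an offset of 64, 2 with the 75th percentile filter, 1 with a trended prior, 3 with array weights, 2 with only the groups compared, 3 with the GAPDH ratio as a covariate, 3 at a threshold of 0.1 and 1 with the second spike-in split as a block. The number with CEE+MPA against control, 4, was 0 within the low spike-in set of either split, 2 within the high set of the first split and 0 with the fibroblast covariate. The number with tibolone against CEE+MPA, 3, was 1 with only the groups compared, 1 with the first spike-in split as a block, 1 within its low set, 1 with the fibroblast covariate, 0 without the arrays of high skeletal muscle signal, 5 at a threshold of 0.1 and 0 with 3 spike-in sets as a block. Leaving out 1 array at a time gave 0 to 3, 3 to 6 and 1 to 4 in these comparisons, 0 to 1 for tibolone against control and against CEE, and 0 for CEE+MPA against CEE. For CEE against control it was 1 without control 4, CEE+MPA 1 or tibolone 3, 2 without CEE+MPA 2 and 3 without tibolone 4. For tibolone against CEE+MPA it was 1 without CEE+MPA 3, tibolone 2 or tibolone 3. Among counts that moved less, LUM lost its CEE+MPA call with no filter and with only the groups compared (3 genes each), and OGN its tibolone against CEE+MPA call with no filter (2 genes) and with the second spike-in split as a block (adjusted p = 0.0522). Without tibolone 1 CHAD passed against control, and without tibolone 4 FBLN1 passed against CEE. Of 2388 alternative values of single genes, 80 changed sign without a call on either side and 0 reversed a call. MFAP5 with CEE+MPA was 0.08 after quantile normalization. Causes were not tested, and signals near the filter limit CHAD most.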
